A study of Mus musculus with 18 samples.

Results

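Ribosome biogenesis factors of the nucleolus were followed as 51 genes, chosen by name and present in each of the 3 deposited tables, out of 25980 genes that all 3 tables hold. RNA was sequenced from 18 mouse libraries, 3 in each of 6 groups. Wild-type cells and cells carrying a CRISPR guide against Nat10 (labelled sgNAT10) were compared in cultured MCA205 cells, in cultured TC1 cells, and in tumours that grew from subcutaneously implanted TC1 cells and were taken on day 8. MCA205 is a chemically induced mouse fibrosarcoma line. TC1 is usually described as a lung epithelial line that carries papillomavirus oncogenes, while the labels call both lines fibrosarcoma. The labels give no treatment besides implantation, no clone for the sgNAT10 populations, and no strain or age for the host mice. The tumours also hold cells of the host mice.

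Ribosomes are assembled in the nucleolus. RNA polymerase I transcribes a long precursor RNA, on which a large complex, the small subunit processome, forms and starts the maturation of the small subunit. Small nucleolar RNAs (snoRNAs) guide chemical modification of the precursor inside 2 kinds of particle, the C/D box particles that methylate and the H/ACA box particles that form pseudouridine. Further factors assemble the large subunit and finish the small one in the cytoplasm. NAT10 belongs to this pathway itself, since it acetylates cytidine in ribosomal RNA of the small subunit, and many genes of the pathway are known targets of the transcription factor MYC, which the series title names after NAT10.

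Libraries held between 51661298 and 78501790 estimated counts. Each member had at least 1234 counts in every library. Nat10 itself was not called as changed in any comparison, with log2 changes of 0.00, -0.22 and -0.22 in MCA205 cells, TC1 cells and tumours (edgeR adjusted p = 0.984, 0.161 and 0.336), and its level therefore does not check the labels. The mesenchymal marker Vim ran from 431.2 to 1343 FPKM (fragments scaled to transcript length and library size) in the cultured libraries. The collagen gene Col1a1 stayed at or under 3.97 FPKM there, whereas Col1a2 lay at 27.7 to 30.3 FPKM in wild-type MCA205 cells and 84.5 to 113.6 FPKM in wild-type TC1 cells and fell with sgNAT10 in both (log2 changes -4.42 and -6.11, edgeR adjusted p = 0.00304 and 1.76e-05). Of 6 mesenchymal markers 5 fell in TC1 cells, and in MCA205 cells 3 fell and 1 rose. The epithelial genes Krt8 and Epcam were expressed in wild-type TC1 cells, at 15.8 to 73.8 and 6.12 to 29.4 FPKM, while the lung epithelial gene Nkx2-1 was near 0. Wild-type MCA205 cells held Krt8 and Epcam too, at 1.11 to 47.1 and 0.303 to 15.7 FPKM. In each line the wild-type library with the highest summed epithelial markers also had the highest summed intestine genes. Whether both signals share a source was not tested. None of the epithelial markers tested was called in any comparison. Tumours also held host cells: the summed macrophage markers lay between 938.7 and 1439 FPKM in tumours and at or under 134.7 FPKM in cultured cells. Intestine and liver genes made up at most 0.342% of the FPKM of any library. Their sums were still 704.7 to 1467 FPKM in cultured TC1 libraries, against 8.28 to 448.9 FPKM in MCA205 libraries and 15.9 to 476.0 FPKM in tumours. The liver gene Alb lay at 277.3 to 401.2 FPKM in wild-type and 382.6 to 478.8 FPKM in sgNAT10 TC1 cells. In MCA205 cells Alb stayed at or under 2.73 FPKM. The origin of these transcripts was not tested. Nothing in the labels says that libraries of a group came from separate cultures or animals, so the p-values rest on a spread between libraries that could be technical alone.

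The summed level of the 51 genes was lower in all 3 sgNAT10 groups. In MCA205 cells the wild-type libraries summed to 3109, 2895 and 2963 FPKM and the sgNAT10 libraries to 2669, 2746 and 2738 FPKM. In TC1 cells the sums were 3083, 3071 and 3420 FPKM against 2608, 2125 and 2084 FPKM. The tumours held 3936, 3508 and 3095 FPKM against 2180, 2551 and 2701 FPKM. No sgNAT10 library reached the lowest wild-type library of its own table. Abundant members weigh most in these sums, which averaged 2989, 3191 and 3513 FPKM in wild-type MCA205 cells, TC1 cells and tumours. Npm1 alone held 710.6, 718.5 and 1212 FPKM of these. The members made up 0.812 ± 0.0270% of all counts of the MCA205 wild type and 0.751 ± 0.00744% of those of the MCA205 sgNAT10 cells (SD, n = 3). This share was 0.860 ± 0.0480% and 0.612 ± 0.0887% in TC1 cells, and 0.901 ± 0.118% and 0.640 ± 0.0770% in tumours. In bulk RNA such as the tumours, fewer cells of a type and less RNA per cell cannot be told apart.

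**Figure D1:**
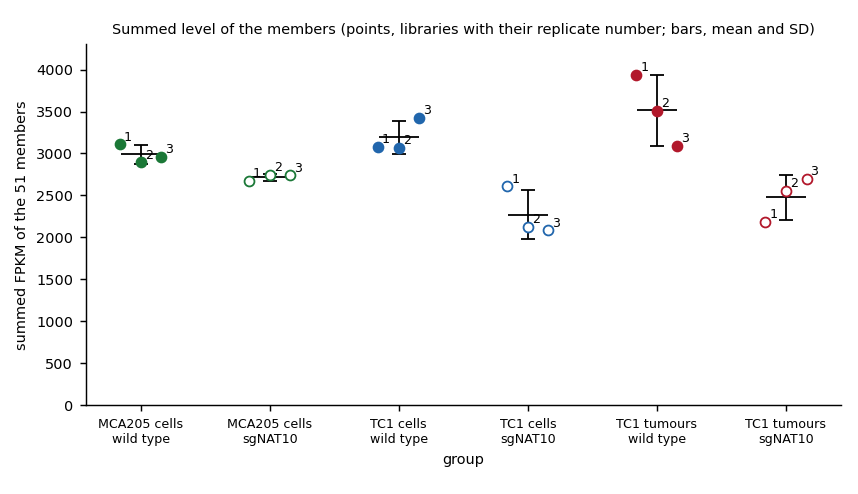
Summed FPKM of the 51 genes in each library, by group. Points are libraries with their replicate number, filled for wild type and open for sgNAT10, and bars show the mean and SD of 3 libraries. Within each table every open point lies under every filled one, from 2084 to 2746 FPKM for sgNAT10 and from 2895 to 3936 FPKM for wild type.

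Gene by gene, called members fell in TC1 cells and tumours, while MCA205 cells had calls both ways. Calls rest on edgeR's quasi-likelihood test, with Benjamini-Hochberg adjustment over all genes tested and a threshold of 0.05. In MCA205 cells 18 of the 51 genes fell and 7 rose, against 19.4% and 21.2% of all 18101 genes tested. In TC1 cells 34 fell and 0 rose, against 22% and 15.9% of 18823 genes. The edgeR estimate lay under 0 for 49 of the 51 genes there. In tumours 22 fell and 0 rose, against 9.72% and 7.65% of 19244 genes, and all 51 estimates lay under 0. The counts of 0 rises were also 0 at an unadjusted p under 0.05 and with DESeq2, in TC1 cells and in tumours. The median log2 change of the members was -0.09 in MCA205 cells, -0.56 in TC1 cells and -0.51 in tumours. Over all genes tested these medians were -0.03, -0.08 and 0.02. By FPKM, the 3 sgNAT10 libraries all lay under the 3 wild-type libraries for 21 members in MCA205 cells, 34 in TC1 cells and 35 in tumours, against 26.2%, 27.1% and 16.1% of all genes tested. They all lay above for 6, 0 and 0 members, against 26.4%, 23.7% and 24.3%. With libraries scaled by their total alone, the tumour medians moved to 0.13 for all genes and to -0.38 for the members.

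Single libraries weighed on the counts. TC1 sgNAT10 1 was the highest of its group for all 51 genes, where it was the highest for 38.01% of all genes tested, and it had the lowest Myc level of its group, 156.4 FPKM against 190.7 and 197.0 FPKM. Wild-type TC1 cells held 242.6, 208.9 and 235.2 FPKM of Myc, which were apart from these and higher (log2 change -0.43, edgeR adjusted p = 0.0103, lost without sgNAT10 2, sgNAT10 3, wild type 1 or wild type 3). In MCA205 cells Myc fell from 84.0, 87.4 and 100.5 FPKM to 52.8, 60.6 and 63.6 FPKM (-0.61, adjusted p = 0.00212), and in tumours its values overlapped (-0.17, adjusted p = 0.539). Without TC1 sgNAT10 1, 46 of the 51 genes fell in TC1 cells, and without TC1 sgNAT10 2 or sgNAT10 3 only 15 and 18 fell. Leaving out wild type 1 gave 22 there. Tumour sgNAT10 1 was the lowest of its group for 45 of 51 genes, where it was the lowest for 35.15% of all genes tested. Tumour wild type 1 was the lowest of its group for 58.08% of all genes tested and for 22 of the members. The tumour count was 5, 2 and 6 without sgNAT10 1, 2 and 3, and 6 without wild type 2. Of the calls, 15 of 34 in TC1 cells and 2 of 22 in tumours, those of Tbl3 and Rrp1b, held whichever library was left out. In MCA205 cells 13 of 18 falls and 4 of 7 rises did so, and without sgNAT10 3, wild type 2 or wild type 3 the count of rises was 4. With dispersion estimated over all 18 libraries 5 members fell and 1 rose in MCA205 cells, and 34 fell in tumours. Calls over all genes tested can move in these fits too, and their shares are not given beside these counts. The moved counts therefore set no trait of the members apart.

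Markers of cycling cells and of other cell types differed between the tumour arms. The summed markers of cycling cells, 6 genes that all fell, ran from 503.2 to 606.8 FPKM in wild-type tumours and from 276.3 to 308.6 FPKM in sgNAT10 tumours. All 5 endothelial markers rose, with sums of 28.65 to 37.02 FPKM against 54.32 to 61.92 FPKM. All 6 skeletal muscle markers were apart and higher in sgNAT10 tumours, 3 of them called, with sums of 20.1 to 26.1 FPKM against 84.4 to 130.8 FPKM. Of 7 macrophage markers 2 fell, Lyz2 (-0.83) and Mrc1 (-0.87), and their sums ran from 1069 to 1439 FPKM against 938.7 to 1086 FPKM. The liver genes, 1 of 7 called, summed to 1.40 to 177.6 FPKM against 417.9 to 458.2 FPKM. In cultured TC1 cells the cycling markers overlapped, at 476.6 to 545.2 FPKM and 512.6 to 538.6 FPKM, with 1 of 6 called in each direction. In MCA205 cells 4 of 6 fell, from 681.5 to 736.9 FPKM down to 577.2 to 611.9 FPKM. Their part in the results on the members was not tested.

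**Figure D2:**
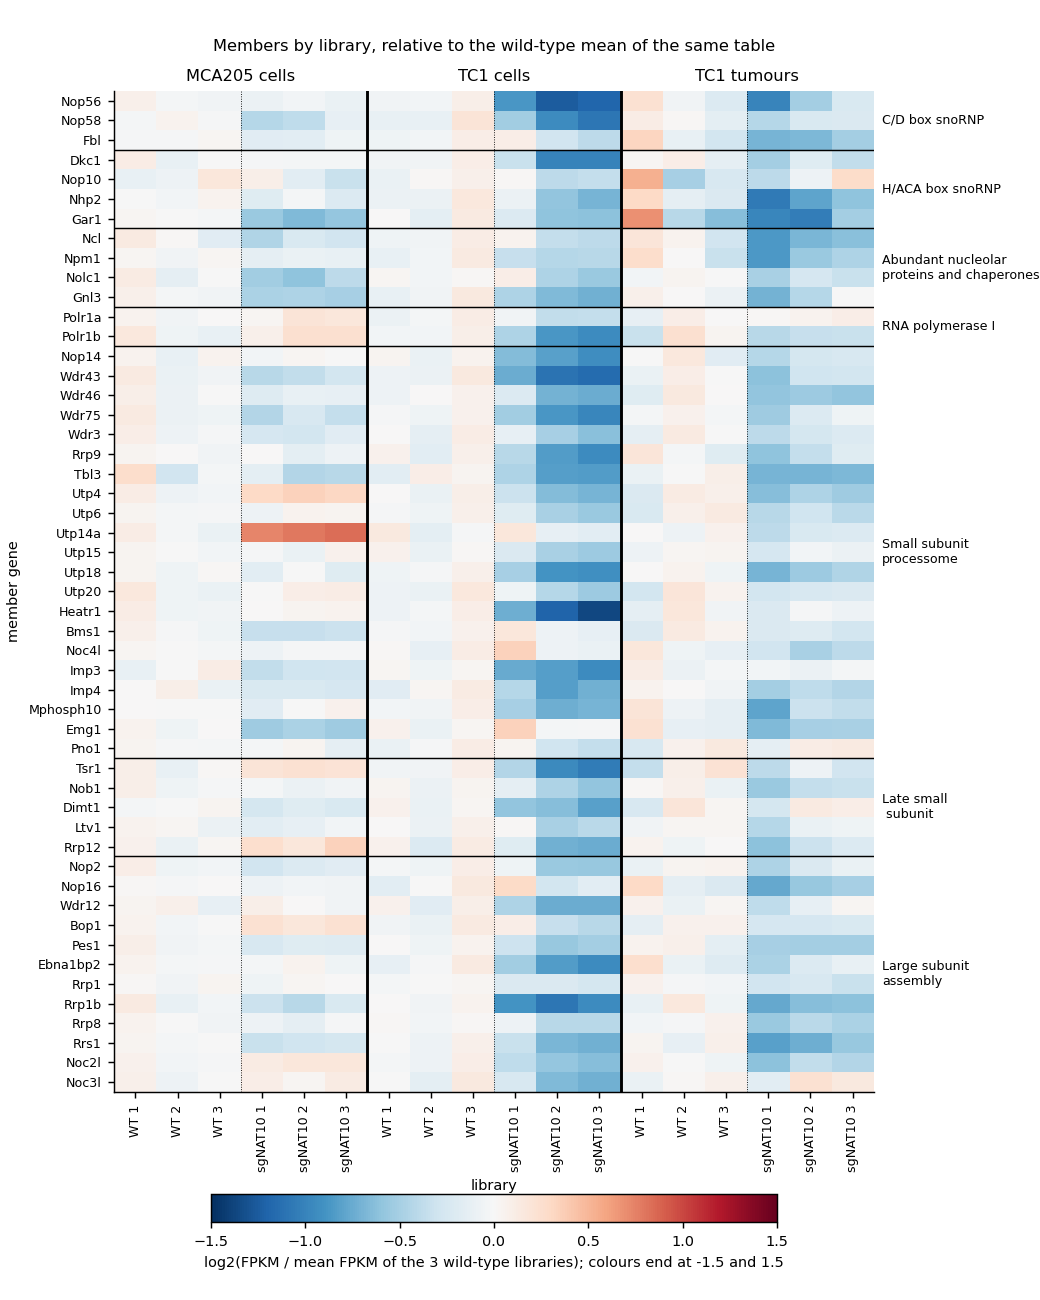
Level of each of the 51 genes in each of the 18 libraries, as log2 of FPKM over the mean of the 3 wild-type libraries of the same table, with genes in rows grouped by role and libraries in columns. Blue fills most sgNAT10 columns of TC1 cells and tumours, TC1 sgNAT10 1 is paler than the other 2 of its group, and MCA205 cells show both colours.

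Levels spread widely within the pathway. The nucleolar chaperone gene Npm1 was the most abundant member in every group, at 710.6 ± 22.8, 718.5 ± 62.6 and 1212 ± 249 FPKM in wild-type MCA205 cells, TC1 cells and tumours. Nop56, Ncl and Fbl took the next 3 places in each of these groups. Their order was Nop56, Ncl, Fbl in MCA205 cells, where 207.3 ± 9.45 FPKM for Nop56 lay clear of 171.0 ± 17.6 FPKM for Ncl. It was Nop56, Fbl, Ncl in TC1 cells, where Fbl at 118.4 ± 7.21 FPKM and Ncl at 110.5 ± 7.91 FPKM did not differ beyond their spread. The lowest members were the large subunit gene Wdr12 in MCA205 cells and tumours, at 8.52 ± 0.624 and 8.99 ± 0.533 FPKM, and Noc3l in TC1 cells, at 10.6 ± 1.07 FPKM.

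The C/D box particle is built from NOP56, NOP58 and the methyltransferase fibrillarin, encoded by Fbl. Nop56, on chromosome 2 from 130274430 to 130279313 in mm10, was listed at 341.2, 344.1 and 376.5 FPKM in wild-type TC1 cells and at 193.2, 149.3 and 155.1 FPKM in sgNAT10 cells. It had the largest fall of all members there, -1.16 ± 0.112 on the log2 scale (estimate ± SE, edgeR adjusted p = 0.000386), and the groups were far apart. In MCA205 cells it stood at 217.9, 203.9 and 200.0 FPKM against 195.3, 201.3 and 193.5 FPKM, which overlapped (-0.05, adjusted p = 0.439). Tumours had 222.6, 183.2 and 164.3 FPKM against 95.5, 133.2 and 161.7 FPKM, apart by a narrow gap and not called (-0.60, adjusted p = 0.112). Nop58 fell in TC1 cells from 38.1, 38.3 and 47.3 FPKM to 28.7, 21.5 and 19.5 FPKM (-0.92, adjusted p = 0.0017), and in MCA205 cells from 28.1 ± 0.825 to 22.8 ± 2.59 FPKM (-0.31, adjusted p = 0.0034). Fbl was not called in TC1 cells: its values of 113.6, 114.8 and 126.7 FPKM overlapped those of sgNAT10 cells, 127.0, 97.0 and 90.2 FPKM (-0.22, adjusted p = 0.277). The overlap came from sgNAT10 1 alone, and the difference between Fbl and its partners was not tested. Fbl fell slightly in MCA205 cells, from 113.8 ± 2.35 to 104.0 ± 3.98 FPKM (-0.13, adjusted p = 0.0244), a call lost without sgNAT10 1, sgNAT10 2 or wild type 3, with log2 changes from -0.16 to -0.10 over the fits that left out 1 library. Tumours held 172.2, 126.9 and 113.1 FPKM of Fbl against 85.0, 86.4 and 96.5 FPKM (-0.77, adjusted p = 0.054).

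The H/ACA box particle holds dyskerin, the pseudouridine synthase encoded by Dkc1, with NOP10, NHP2 and GAR1. Gar1 had the largest fall of all members in MCA205 cells. Its wild-type libraries there lay at 50.9, 49.5 and 48.9 FPKM and its sgNAT10 libraries at 33.9, 31.4 and 33.4 FPKM, well apart (-0.58 ± 0.0531, edgeR adjusted p = 0.000211). In TC1 cells Gar1 went from 48.0 ± 4.71 to 34.9 ± 5.88 FPKM (-0.50, adjusted p = 0.0291), and this call held only without sgNAT10 1. In tumours it had the lowest estimate of all members (-1.06 ± 0.428, adjusted p = 0.127) and was not called, with 69.4, 32.4 and 27.6 FPKM overlapping 21.9, 21.1 and 30.3 FPKM. Nhp2 was called in tumours, where it fell from 128.3, 95.0 and 90.0 FPKM to 50.2, 60.2 and 69.0 FPKM (-0.90 ± 0.226, adjusted p = 0.036). That call was lost without any sgNAT10 library or wild type 2, with changes from -1.06 to -0.60. Dkc1 was called in TC1 cells, where it fell from 56.7 ± 3.61 to 34.0 ± 9.65 FPKM (-0.80, adjusted p = 0.0171, held only without sgNAT10 1). Nop10 was not called in any comparison.

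Nucleolin (Ncl), nucleophosmin (Npm1), the snoRNA particle chaperone NOPP140 (Nolc1) and nucleostemin (Gnl3) are abundant nucleolar proteins. Among these, 3 of 4 fell in MCA205 cells, 2 of 4 in TC1 cells and 1 of 4 in tumours. Of all genes tested 19.4%, 22% and 9.72% fell in these comparisons. Nolc1 fell in MCA205 cells from 103.0, 86.2 and 94.5 FPKM to 65.9, 62.1 and 72.3 FPKM (-0.43 ± 0.0381, edgeR adjusted p = 0.000178). In TC1 cells its sgNAT10 libraries straddled the wild type, with 95.7, 91.3 and 94.9 FPKM against 100.7, 68.0 and 63.7 FPKM (-0.29, adjusted p = 0.225). Gnl3 fell in both cell lines, from 83.2 ± 4.06 to 59.6 ± 0.769 FPKM in MCA205 cells (-0.40, adjusted p = 0.000612) and from 70.6 ± 6.73 to 46.4 ± 4.42 FPKM in TC1 cells (-0.66, adjusted p = 0.00307). Ncl fell in MCA205 cells, from 187.5, 173.0 and 152.5 FPKM to 124.6, 145.5 and 140.0 FPKM (-0.24, adjusted p = 0.0356), a call lost without sgNAT10 1 or 3, with changes from -0.30 to -0.17. Its TC1 values of 105.6, 106.3 and 119.6 FPKM overlapped 114.5, 86.5 and 84.3 FPKM. In tumours Ncl lay at 292.3, 267.8 and 211.7 FPKM against 141.9, 159.6 and 166.9 FPKM, apart and short of the threshold (-0.85 ± 0.246, adjusted p = 0.0526). Npm1 fell in TC1 cells, from 666.4, 701.1 and 788.0 FPKM to 567.3, 534.6 and 536.8 FPKM (-0.46, adjusted p = 0.00571), a call lost without sgNAT10 2 or 3, with changes from -0.44 to -0.29. In tumours it stood at 1459, 1215 and 960.4 FPKM against 669.8, 821.3 and 877.6 FPKM (-0.75, adjusted p = 0.0763).

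Polr1a and Polr1b encode the catalytic core of RNA polymerase I. Their edgeR estimates had the same sign in MCA205 and TC1 cells, and the difference between the 2 genes was not tested. In tumours the Polr1a estimate of -0.03 was near 0 and changed sign under several alternatives. Polr1a, the largest subunit, overlapped between the groups in all 3 comparisons. In MCA205 cells it was at 13.3, 12.4 and 12.9 FPKM against 13.1, 14.8 and 14.5 FPKM, in TC1 cells at 12.8, 13.4 and 14.7 FPKM against 13.2, 10.5 and 10.6 FPKM, and in tumours at 10.3, 12 and 11.3 FPKM against 11.4, 11.6 and 12 FPKM. Its log2 changes of 0.13, -0.29 and -0.03 were not called (edgeR adjusted p = 0.074, 0.0764 and 0.826). Polr1b, the second largest subunit, was called in opposite directions. It fell in TC1 cells from 36.7, 36.8 and 40.1 FPKM to 27.5, 20.7 and 19.6 FPKM (-0.76, adjusted p = 0.00869, lost without sgNAT10 2, with changes from -0.86 to -0.53). In MCA205 cells it rose from 24.6, 21.1 and 20.4 FPKM to 23.1, 25.9 and 26.1 FPKM (0.28, adjusted p = 0.0165). The MCA205 groups overlapped, and the call was lost without sgNAT10 3, wild type 2 or wild type 3, with changes from 0.23 to 0.35. Tumours went from 15.1, 22.4 and 19.5 FPKM to 14.2, 14.9 and 15.1 FPKM (-0.55, adjusted p = 0.0237), overlapping by a small margin, and the call was lost without any sgNAT10 library or wild type 2.

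The small subunit processome supplied 21 of the members. In MCA205 cells 7 of these fell and 2 rose, in TC1 cells 14 fell, and in tumours 11 fell, with 0 rises in the last 2 comparisons. The falls were 33.3%, 66.7% and 52.4% of the role, against 19.4%, 22% and 9.72% of all genes tested. The MCA205 rises were 9.52%, against 21.2%. Heatr1, a large scaffold protein of the UTP-A subcomplex, was called in TC1 cells and in neither other comparison. There it went from 16.9, 17.4 and 19.0 FPKM to 10.7, 7.75 and 6.92 FPKM (-1.10 ± 0.166, edgeR adjusted p = 0.00232), with a wide gap between the groups. In MCA205 cells its values of 21.4, 19.0 and 19.1 FPKM overlapped 19.9, 20.4 and 20.5 FPKM (0.04, adjusted p = 0.557), and in tumours 16.8, 20.6 and 17.7 FPKM overlapped 15.9, 18.1 and 17.5 FPKM (-0.28, adjusted p = 0.161). Wdr43, another UTP-A subunit, fell in all 3 comparisons. The wild-type and sgNAT10 libraries were at 60.1, 51.3 and 52.9 FPKM against 40.9, 42.5 and 45.1 FPKM in MCA205 cells (-0.35, adjusted p = 0.00455) and at 56.6, 56.2 and 66.1 FPKM against 35.5, 27.6 and 26.8 FPKM in TC1 cells (-1.04, adjusted p = 0.00146). In tumours Wdr43 went from 57.6, 65.9 and 61.4 FPKM to 40.1, 49.9 and 51.1 FPKM (-0.53, adjusted p = 0.0316), a call lost without any sgNAT10 library or wild type 2.

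Utp14a encodes an activator of a processome helicase and was the member that rose most. It went up in MCA205 cells from 11.4, 10.4 and 9.88 FPKM to 17.6, 18.3 and 18.9 FPKM (0.79 ± 0.0644, edgeR adjusted p = 0.00013), with no overlap. In TC1 cells 13.3, 10.9 and 11.9 FPKM overlapped 13.6, 11.0 and 10.8 FPKM (-0.08, adjusted p = 0.652), and in tumours 15.7, 14.9 and 16.4 FPKM stood against 11.9, 13.4 and 13.6 FPKM (-0.39, adjusted p = 0.0695). Utp4, a UTP-A subunit, rose in MCA205 cells from 58.1, 51.2 and 52.4 FPKM to 66.4, 68.3 and 66.6 FPKM (0.27, adjusted p = 0.00772). It fell in TC1 cells from 81.5, 75.9 and 86.0 FPKM to 64.7, 51.9 and 50.0 FPKM (-0.60, adjusted p = 0.00621), a call lost without sgNAT10 2, sgNAT10 3 or wild type 1, with changes from -0.63 to -0.41. In tumours it fell from 39.6, 50.1 and 48.4 FPKM to 29.6, 33.3 and 31.9 FPKM (-0.63, adjusted p = 0.00959, lost without sgNAT10 2). The groups were apart in each of these 3 comparisons.

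Emg1 encodes the methyltransferase that modifies a pseudouridine of small subunit RNA. In MCA205 cells it fell from 97.7, 90.1 and 94.1 FPKM to 65.2, 67.4 and 64.8 FPKM (-0.51 ± 0.0411, edgeR adjusted p = 0.00012), and in tumours from 134.5, 106.2 and 104.9 FPKM to 72.8, 81.6 and 82.1 FPKM (-0.63, adjusted p = 0.0451). Cultured TC1 cells showed the reverse order of means, with 62.0, 55.3 and 60.8 FPKM overlapping 75.1, 58.4 and 58.5 FPKM (0.07, adjusted p = 0.694). The tumour call for Emg1 was lost without any sgNAT10 library or wild type 2, with changes from -0.75 to -0.42. Imp3 and Imp4 encode partners of the U3 snoRNA that bind MPHOSPH10. Imp3 fell in both cell lines, from 42.9, 46.3 and 50.3 FPKM to 35.9, 37.8 and 38.2 FPKM in MCA205 cells (-0.31, adjusted p = 0.00762) and from 55.3, 51.5 and 55.1 FPKM to 31.9, 30.6 and 28.2 FPKM in TC1 cells (-0.88 ± 0.0711, adjusted p = 0.000188). In tumours Imp3 overlapped, with 32.2, 28.1 and 29.1 FPKM against 29.0, 28.0 and 29.2 FPKM (-0.17, adjusted p = 0.427).

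Imp4 was called lower in all 3 comparisons at low FPKM, though each wild-type MCA205 library held at least 2894 of its counts. Its libraries lay at 11.3, 12 and 10.5 FPKM against 9.63, 9.63 and 9.46 FPKM in MCA205 cells (-0.20, edgeR adjusted p = 0.0496), where the call held only without sgNAT10 1 and changes ran from -0.25 to -0.15. TC1 cells had 12.6, 14.5 and 15.4 FPKM against 10.6, 7.97 and 8.63 FPKM (-0.67, adjusted p = 0.0065, lost without sgNAT10 2 or 3). Tumours had 11.5, 11.1 and 10.7 FPKM against 7.80, 8.55 and 8.20 FPKM (-0.62, adjusted p = 0.0204, lost without any sgNAT10 library or wild type 2). Tbl3, a UTP-B subunit, fell in tumours from 12.9, 13.8 and 14.7 FPKM to 8.52, 8.55 and 8.64 FPKM (-0.77 ± 0.0896, adjusted p = 0.00448) and in TC1 cells from 24.2 ± 2.16 to 14.9 ± 2.26 FPKM (-0.64, adjusted p = 0.00444). Wdr46, a scaffold of the processome, fell in tumours from 25.2, 31.5 and 28.6 FPKM to 18.8, 19.4 and 18.9 FPKM (-0.70 ± 0.0956, adjusted p = 0.00711), a call lost without sgNAT10 2. Nop14, whose product works with EMG1 in the processome, fell in TC1 cells from 49.1, 44.8 and 49.8 FPKM to 30.4, 27.3 and 25.1 FPKM (-0.84 ± 0.0913, adjusted p = 0.000584). Its MCA205 values of 33.4, 30.1 and 33.5 FPKM overlapped 31.4, 32.9 and 32.1 FPKM. Among the other processome genes, Utp18, Wdr75, Rrp9, Mphosph10, Utp6, Utp15 and Wdr46 fell in TC1 cells too, with log2 changes from -0.82 for Utp18 to -0.42 for Utp15, and Noc4l and Pno1 were not called in any comparison.

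**Figure D3:**
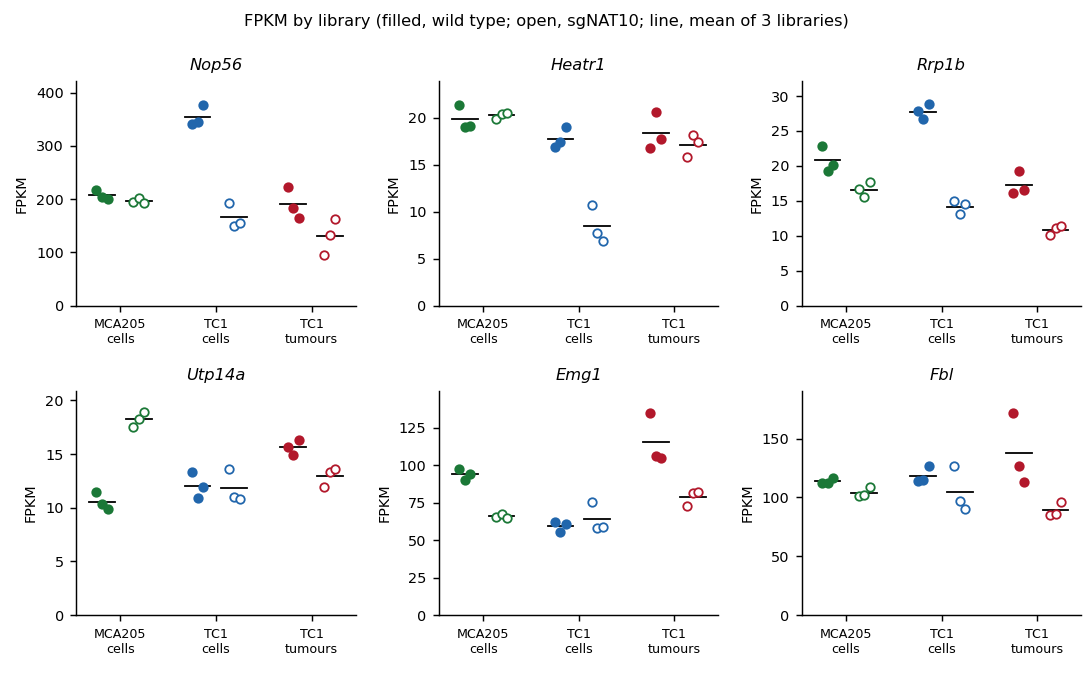
FPKM of Nop56, Heatr1, Rrp1b, Utp14a, Emg1 and Fbl in the 18 libraries. Points are libraries, filled for wild type and open for sgNAT10, lines are means of 3, and each panel starts at 0. Nop56 and Heatr1 dropped in TC1 cells, Rrp1b in all 3 comparisons, Utp14a was higher in sgNAT10 MCA205 cells, and Emg1 was lower in sgNAT10 MCA205 cells and tumours.

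Late factors of the small subunit are TSR1, NOB1, DIMT1, LTV1 and RRP12. In TC1 cells 4 of 5 fell, in tumours 1 of 5 fell, and in MCA205 cells 1 fell and 2 rose. Of all genes tested 22% fell in TC1 cells and 9.72% in tumours. In MCA205 cells 19.4% of all genes fell and 21.2% rose, so the single fall there, 20%, was near that share. Tsr1, which resembles a translation GTPase, fell in TC1 cells from 34.2, 34.1 and 37.7 FPKM to 26.1, 18.3 and 17.1 FPKM (-0.85 ± 0.171, edgeR adjusted p = 0.00778, lost without sgNAT10 2, with changes from -0.98 to -0.63). In MCA205 cells it rose from 25.4, 22.1 and 24.1 FPKM to 27.2, 28.0 and 27.6 FPKM (0.18, adjusted p = 0.0416), a call that held only without wild type 1. Rrp12, an export factor, rose in MCA205 cells from 10.7, 9.58 and 10.5 FPKM to 12.2, 11.5 and 13.0 FPKM (0.26, adjusted p = 0.0181). In TC1 cells it fell from 13.1, 10.9 and 13.6 FPKM to 11.0, 7.58 and 7.48 FPKM (-0.57, adjusted p = 0.0407), with overlap between the groups and a call that held only without sgNAT10 1, and changes ran from -0.69 to -0.36 over the fits that left out 1 library. Dimt1, the dimethyladenosine transferase of small subunit RNA, fell in TC1 cells from 19.4, 17.3 and 19.0 FPKM to 12.3, 12 and 10.6 FPKM (-0.74, adjusted p = 0.00132). Its MCA205 fall was small, from 16.8, 17.2 and 17.6 FPKM to 14.4, 15.2 and 14.7 FPKM (-0.17, adjusted p = 0.0164, lost without wild type 3), and its tumour values of 9.75, 13.1 and 11.7 FPKM overlapped 9.58, 12.7 and 12.3 FPKM (-0.04, adjusted p = 0.84).

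Large subunit assembly contributed 12 members, of which 4 fell and 2 rose in MCA205 cells, 9 fell in TC1 cells and 7 fell in tumours. The falls were 33.3%, 75% and 58.3% of the role, against 19.4%, 22% and 9.72% of all genes tested. The MCA205 rises were 16.7%, against 21.2%. Rrp1b encodes a nucleolar partner of a protein phosphatase. It fell in MCA205 cells from 22.8, 19.3 and 20.2 FPKM to 16.6, 15.5 and 17.7 FPKM (-0.38 ± 0.0574, edgeR adjusted p = 0.00187), in TC1 cells from 27.8, 26.7 and 28.8 FPKM to 14.9, 13.1 and 14.5 FPKM (-1.04 ± 0.0794, adjusted p = 0.000155), and in tumours from 16.1, 19.3 and 16.5 FPKM to 10.2, 11.1 and 11.3 FPKM (-0.94 ± 0.124, adjusted p = 0.00642). The groups were apart each time, and each call held whichever library was left out, which was so in all 3 comparisons for no other member. Its relative Rrp1 fell less in TC1 cells, from 92.5 ± 2.06 to 78.7 ± 1.31 FPKM (-0.26, adjusted p = 0.00873), and that call held in 1 of 6 fits that left out a library.

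Pes1 and Bop1 encode partners in the PeBoW complex with WDR12. Pes1 fell in all 3 comparisons: from 58.8, 53.3 and 54.2 FPKM to 47.0, 49.1 and 48.4 FPKM in MCA205 cells (-0.20, edgeR adjusted p = 0.0131), from 67.8, 64.3 and 70.2 FPKM to 54.4, 45.7 and 47.4 FPKM in TC1 cells (-0.50, adjusted p = 0.00469), and from 52.4, 53.1 and 45.7 FPKM to 35.6, 35.4 and 35.5 FPKM in tumours (-0.63, adjusted p = 0.0228). The TC1 call for Pes1 was lost without sgNAT10 2 or 3, and the tumour call without any sgNAT10 library or wild type 2. Bop1 instead rose in MCA205 cells, from 48.9, 46.1 and 47.1 FPKM to 55.6, 53.4 and 55.4 FPKM (0.23, adjusted p = 0.00401), and fell in tumours, from 36.5, 41.7 and 41.6 FPKM to 33.6, 33.6 and 34.2 FPKM (-0.37, adjusted p = 0.0299, lost without any sgNAT10 library or wild type 2). Its TC1 values of 49.0, 47.2 and 55.6 FPKM overlapped 54.4, 39.9 and 38.0 FPKM. Wdr12 was called in TC1 cells, where it fell from 14.1 ± 1.39 to 9.04 ± 1.04 FPKM (-0.90, adjusted p = 0.00339).

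Rrs1, which brings the 5S particle to the large subunit, fell in MCA205 cells from 48.9, 46.5 and 47.1 FPKM to 37.6, 38.5 and 39.6 FPKM (-0.29, edgeR adjusted p = 0.000659), in TC1 cells from 59.1, 56.4 and 62.7 FPKM to 47.0, 36.9 and 36.0 FPKM (-0.61, adjusted p = 0.00659), and in tumours from 56.5, 50.1 and 57.5 FPKM to 31.0, 32.9 and 36.8 FPKM (-0.82 ± 0.136, adjusted p = 0.011). The TC1 call was lost without sgNAT10 2 or 3, and the tumour call without sgNAT10 1 or 2. Noc2l, of the complex that exports large subunit precursors, rose slightly in MCA205 cells from 87.1, 80.9 and 82.1 FPKM to 90.6, 94.0 and 93.9 FPKM (0.16, adjusted p = 0.0309, lost without sgNAT10 2, sgNAT10 3, wild type 2 or wild type 3). It fell in TC1 cells from 85.9, 83.8 and 94.3 FPKM to 67.6, 59.0 and 56.3 FPKM (-0.56, adjusted p = 0.00522, lost without sgNAT10 2) and in tumours from 72.1, 68.8 and 66.3 FPKM to 45.1, 53.3 and 50.9 FPKM (-0.65, adjusted p = 0.023, lost without any sgNAT10 library or wild type 2). No library of one genotype reached the other in any of the 3 comparisons of Noc2l. Nop16 was not called in any comparison.

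**Figure D4:**
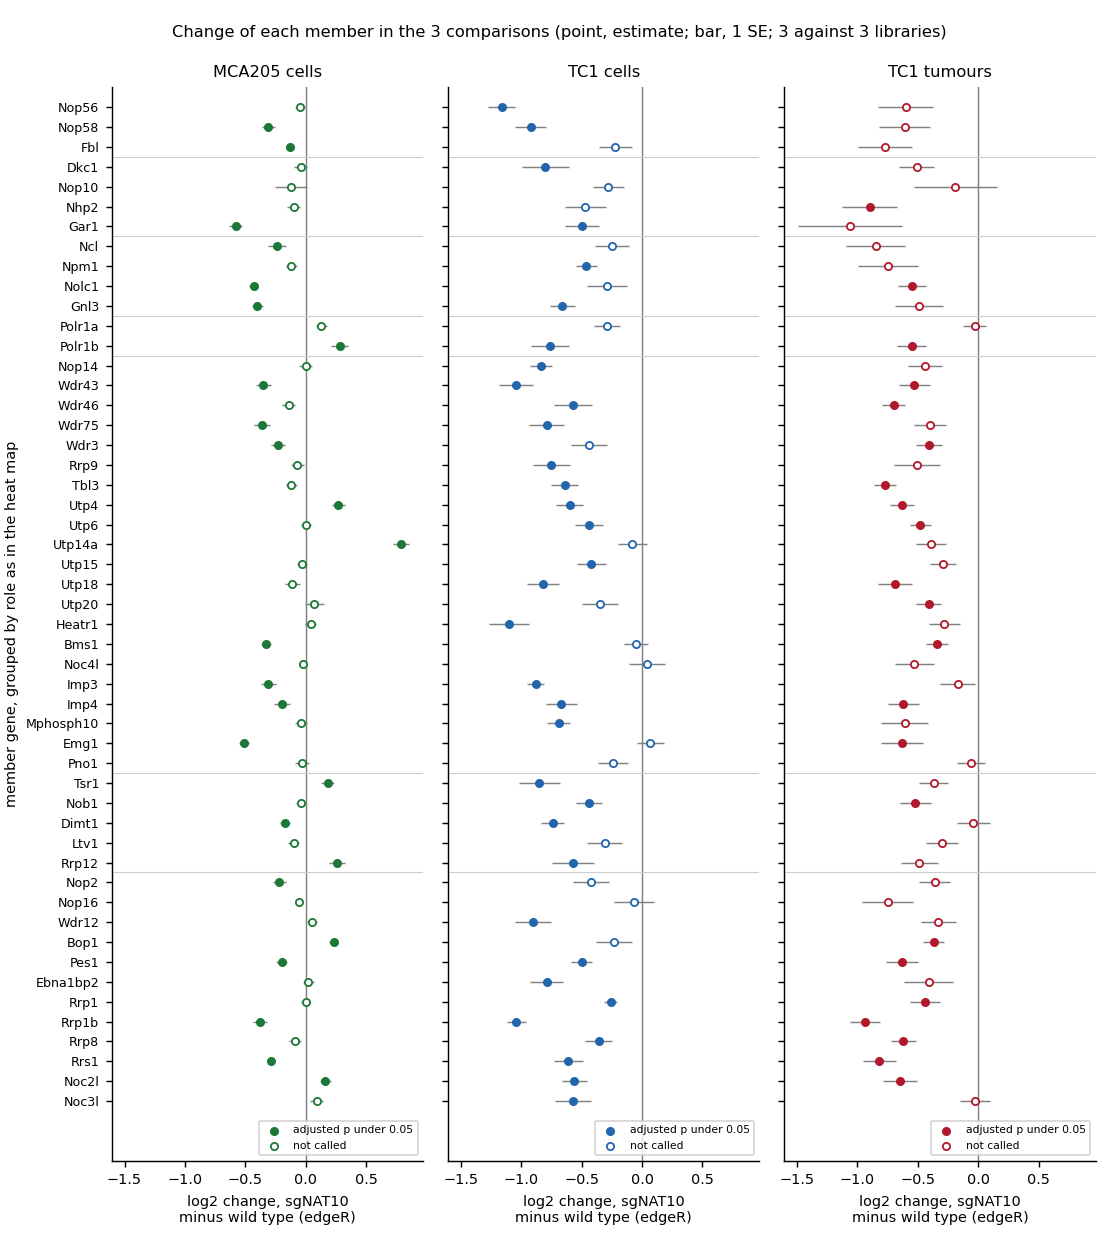
Log2 change of each member, sgNAT10 minus wild type, in MCA205 cells, TC1 cells and tumours, with genes in the row order of the heat map. Points are edgeR estimates, bars 1 SE, and filled points passed an adjusted p of 0.05. MCA205 points scatter around 0 from -0.58 to 0.79, while tumour points lie from -1.06 to -0.03 and TC1 points from -1.16 to 0.07.

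Calls were shared in part between the comparisons, which have no library in common. Imp4, Pes1, Rrp1b, Rrs1 and Wdr43 fell in all 3. TC1 cells and tumours shared 15 falls, which is 44.1% of those in TC1 cells and 68.2% of those in tumours. MCA205 and TC1 cells shared 11 falls, 61.1% and 32.4% of each list, and MCA205 cells and tumours shared 9, 50% and 40.9%. Over all genes tested in both tables, the shared falls were 14.3% and 31.3% of the lists for TC1 cells and tumours, 31.5% and 26.9% for MCA205 and TC1 cells, and 23.6% and 44.2% for MCA205 cells and tumours. Of the 7 genes that rose in MCA205 cells 5 fell in TC1 cells, namely Noc2l, Polr1b, Rrp12, Tsr1 and Utp4. That share was 71.4%, where it was 29.6% over all genes. Of all 51 members, however, 35.3% fell in MCA205 cells, 66.7% in TC1 cells and 43.1% in tumours. The shares among members lie near these rates, so they show neither sharing nor opposition beyond the number of members called. Of the members, 6 were not called in any comparison: Nop10, Polr1a, Noc4l, Pno1, Ltv1 and Nop16.

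The difference between the effects in MCA205 and TC1 cells was tested as an interaction contrast over 12 libraries. It was called for 24 members with a higher and 2 with a lower log2 change in MCA205 cells, against 19.2% and 16.7% of 20272 genes tested. The largest differences were those of Heatr1 (1.09 ± 0.194, edgeR adjusted p = 0.00126) and Nop56 (1.06 ± 0.134, adjusted p = 0.000134). Utp14a, Utp4 and Nop14 differed by 0.82, 0.81 and 0.79 (adjusted p = 0.00133, 0.00117 and 0.00046). All 5 genes called in opposite directions differed as well, by 0.99 for Tsr1, 0.98 for Polr1b, 0.81 for Utp4, 0.78 for Rrp12 and 0.67 for Noc2l. Emg1 and Bms1, the GTPase of the processome, differed the other way, by -0.63 and -0.33 (adjusted p = 0.0037 and 0.0489). The call for Bms1 held in 3 of 12 fits that left out a library, that for Emg1 in 12 of 12. Without TC1 sgNAT10 1 the number of higher differences was 38. The number of lower differences was 1 or 2, whichever library was left out.

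Tumours and cultured TC1 cells differed for few members. The difference of effects was higher in tumours for 3 genes and lower for 1, against 13.1% and 15.1% of 20706 genes tested, and its median over the members was -0.02. Heatr1 (0.75 ± 0.222, edgeR adjusted p = 0.0265), Imp3 (0.64, adjusted p = 0.0157) and Dimt1 (0.63, adjusted p = 0.0195) fell in cultured cells and were not called in tumours. Emg1 had the lower value in tumours (-0.77 ± 0.227, adjusted p = 0.0267). The call for Imp3 held in all 12 fits that left out a library, that for Dimt1 in 11, and those for Heatr1 and Emg1 in 8 each. Without TC1 sgNAT10 1 the differences were higher for 8 genes and lower for 0, and without TC1 sgNAT10 3 higher for 1. The lower call was lost as well without TC1 wild type 2, tumour sgNAT10 1 or tumour sgNAT10 2. Standard errors of this contrast were wide, so the other 47 members are not shown to respond alike in culture and tumour.

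**Figure D5:**
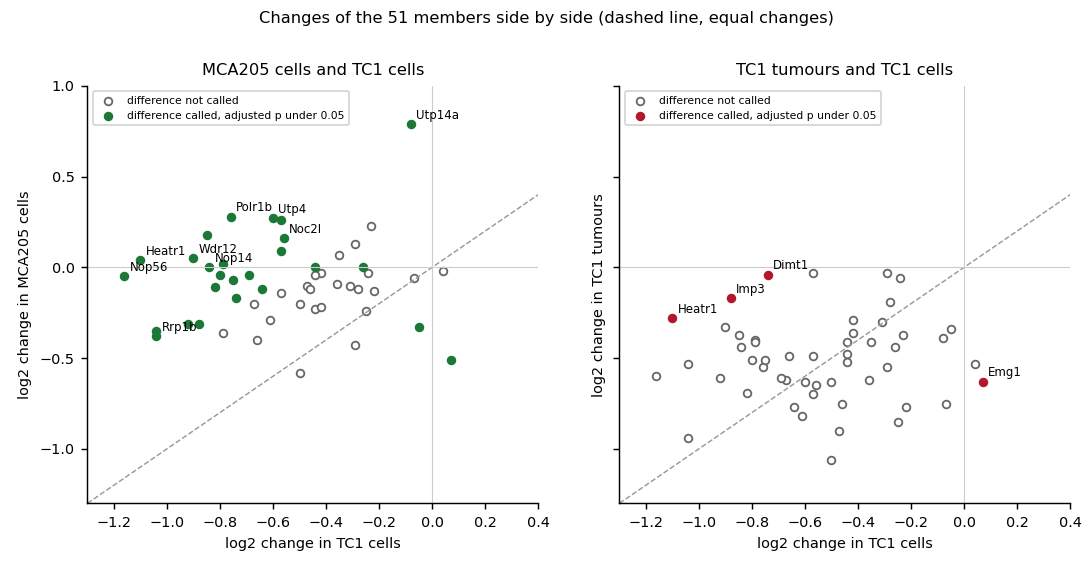
Log2 changes of the 51 genes in MCA205 cells (left) and tumours (right) against those in TC1 cells, each point a gene, with the dashed line marking equal changes. Filled points have a called difference of effects, 24 above and 2 below the line on the left and 3 above and 1 below it on the right. The same TC1 changes stand on both horizontal axes.

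The members belong to a larger pathway, of which 109 further genes were listed. In MCA205 cells 37 fell and 19 rose of 108 tested (34.3% and 17.6%, median log2 change -0.07), where 19.4% and 21.2% of all genes did. In TC1 cells 51 fell and 8 rose of 109 (46.8% and 7.34%, median -0.26), against 22% and 15.9%. In tumours 25 fell and 0 rose of 108 (23.1% and 0%, median -0.37), against 9.72% and 7.65%. Several groups lay near these shares, among them RNA polymerase I in MCA205 cells, with 23.1% each way, small subunit factors there, with 19.4% falling and 16.1% rising, and helicases in TC1 cells, with 23.5% falling. Factors of the small subunit had the most falls in TC1 cells, 21 of 31 with 1 rise, against 6 falls and 5 rises in MCA205 cells and 9 falls in tumours. Large subunit factors had 15 falls of 34 in each cell line, with 7 rises in MCA205 cells and 0 in TC1 cells, and 7 falls in tumours. Subunits and factors of RNA polymerase I, 13 in number, had 3 falls and 3 rises in MCA205 cells, 6 falls and 2 rises in TC1 cells, and 3 falls in tumours. Nucleolar helicases had 6, 4 and 3 falls of 17, with 4, 2 and 0 rises. The RNA exosome, which trims the precursor, had 7 falls of 13 tested in MCA205 cells, 5 falls and 3 rises of 14 in TC1 cells, and 3 falls of 13 in tumours.

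Several members carry snoRNA genes in their introns, so that 1 transcript serves both the protein and the guide RNA. Of the 51 genes, 7 (13.7%) hold an annotated snoRNA gene inside their bounds on the same strand, against 1.69% of 14935 coding genes tested in TC1 cells. These are Nop56 with 5, Nop58 with 4, Ncl, Gnl3 and Wdr43 with 3 each, Tsr1 with 2 and Dkc1 with 1. How reads of a snoRNA were kept apart from those of its host rests on the authors' assignment of reads. In TC1 cells 6 of these 7 fell, with log2 changes from -1.16 for Nop56 to -0.66 for Gnl3, and Ncl was not called. Of all 51 members 66.7% fell there, and of all genes tested 22%, so the count sets no trait of host genes apart. In MCA205 cells Nop58, Ncl, Gnl3 and Wdr43 fell and Tsr1 rose, and in tumours Wdr43 alone was called. A coding gene on the other strand overlaps 18 of the 51 members, Idh3b that of Nop56 and Lpcat3 that of Emg1 among them, and no strand setting is given in the sources used here.

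Retained introns were followed as the share of a gene's counts on transcripts annotated with a retained intron, available for 36 members. With 3 libraries against 3, the smallest two-sided p of an exact permutation test is 0.1, so no share can pass a threshold of 0.05. In tumours the libraries were apart with sgNAT10 higher for 14 of 36 members (38.9%) and lower for 0, where 25.9% and 2.58% of 7881 genes were. Gnl3 went from 13.0, 14.1 and 14.9% in wild-type tumours to 21.5, 21.4 and 21.5% in sgNAT10 tumours, and Nob1 from 27.2, 32.4 and 33.1% to 36.7, 38.8 and 37.2% (exact permutation p = 0.1 each). Nop56 had 21.2, 18.2 and 19.0% against 26.0, 23.2 and 29.3%. Others of the 14 were apart at small shares, such as Utp6 from 0.0623 to 0.140% and Mphosph10 from 0.491 to 1.0% over the tumour libraries.

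MCA205 cells showed the other direction for Nop56, Gnl3, Utp4 and Noc4l, which were among the 14. They showed the same direction for Nob1 and Utp6, also among the 14. The shares of Noc4l and Utp6 in MCA205 libraries were small, from 0.871 to 1.56% and from 0.0932 to 0.253%. There the share was apart and lower in sgNAT10 for 6 of 36 members (16.7%) and higher for 3 (8.33%), where 9.34% and 14% of 7462 genes were. Nop56 went from 24.7, 22.5 and 21.8% to 12.2, 12.1 and 14.0%, Gnl3 from 28.2, 27.3 and 28.7% to 19.9, 19.4 and 20.9%, and Utp4 from 20.3, 20.9 and 18.3% to 6.58, 5.90 and 8.32% (exact permutation p = 0.1 each). Dimt1 rose in share, from 21.9, 17.6 and 18.7% to 34.5, 28.5 and 30.6%. When only transcripts annotated as protein coding were summed, the MCA205 log2 change of Nop56 was 0.15 in place of -0.05. In TC1 cells 2 members were apart in each direction (5.56% each), against 7.45% higher and 8.25% lower of 7975 genes, and the Nop56 shares overlapped, with 8.83, 11.3 and 10.6% against 11.1, 13.6 and 14.5%. These are descriptions of how the deposited values divide between transcripts of a gene, which short reads resolve only in part.

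Promoters were read because many members moved together and the series title names MYC. RefSeq windows on GRCm38.p6, 250 bases before to 50 after the start, matched 44 of the 51 members. The E-box CACGTG, the core sequence that MYC and MAX bind and its own reverse complement, was present in 11 of 44 members (25%) and in 10.95% of 11698 coding genes tested with such a window. The ETS core CCGGAAG, searched on both strands and chosen after the data were seen, was in 17 members (38.6%) and 17.67% of genes. Of 4 further motifs chosen in the same way, searched on both strands, CCAAT was in 43.18% of members and 42.83% of genes, GGGCGG in 68.18% and 64.22%, the NRF1 motif in 2.27% and 2.06%, and AAGATGGCG in 2.27% and 3.08%. Members had no more windows each than other genes, 1.11 against 1.27. In TC1 cells 7 of 11 members with the E-box and 22 of 33 without it fell, with medians of -0.57 and -0.56, and in MCA205 cells 4 of 11 and 12 of 33 fell. In tumours 7 of 11 and 11 of 33 fell, with medians of -0.53 and -0.51. A match is a run of letters and no measured site, and windows without it say nothing about the factor.

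The E-box lay before the start in 4 members and after it in 7. The following stretches are shown because these genes fell in all 3 comparisons (Wdr43, Imp4, Pes1) or were called in opposite directions (Utp4, Tsr1). Each has 30 bases, 5′ to 3′ on the strand the RefSeq table gives for the gene, with the E-box in capitals. Bases just after the start were found in an annotated transcript of Wdr43, Pes1, Utp4 and Tsr1 but not of Imp4, so the orientation of the Imp4 stretch rests on the table alone. They lie at chr17:71616220-71616249, chr1:34439696-34439725, chr11:3963965-3963994, chr8:106893643-106893672 and chr11:74898092-74898121, with all 5 genes on the plus strand.
Wdr43: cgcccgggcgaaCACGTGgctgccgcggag
Imp4: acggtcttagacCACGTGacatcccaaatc
Pes1: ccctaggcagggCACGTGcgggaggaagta
Utp4: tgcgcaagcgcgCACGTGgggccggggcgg
Tsr1: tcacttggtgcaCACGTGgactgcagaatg

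Longer upstream stretches of 150 bases are shown for Wdr46, Utp18 and Nop2, whose windows hold both an E-box and an ETS core before the start. The same search of transcripts found Wdr46 and Utp18 but not Nop2. Capitals mark CACGTG and CCGGAAG, on either strand and with overlapping matches joined. They lie at chr17:33940573-33940722 on the plus strand, chr11:93885767-93885916 on the minus strand and chr6:125131733-125131882 on the plus strand of GRCm38.p6.
Wdr46: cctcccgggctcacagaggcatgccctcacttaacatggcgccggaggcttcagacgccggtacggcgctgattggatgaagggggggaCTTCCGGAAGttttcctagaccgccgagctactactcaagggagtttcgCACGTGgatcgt
Utp18: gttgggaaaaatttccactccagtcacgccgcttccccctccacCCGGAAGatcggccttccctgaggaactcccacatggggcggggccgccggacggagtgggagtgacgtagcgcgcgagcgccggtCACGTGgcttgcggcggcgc
Nop2: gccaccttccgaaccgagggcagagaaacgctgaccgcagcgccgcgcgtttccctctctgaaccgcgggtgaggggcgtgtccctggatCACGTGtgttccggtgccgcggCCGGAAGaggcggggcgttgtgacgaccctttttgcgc
Utp18 and Wdr46 fell in TC1 cells and tumours and were not called in MCA205 cells, and Nop2 fell in MCA205 cells (-0.22, edgeR adjusted p = 0.0181) and was not called in TC1 cells (-0.42, adjusted p = 0.065) or tumours (-0.36, adjusted p = 0.0919).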

How the data were processed

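RNA-seq values of 18 mouse libraries were taken from 3 deposited tables, 1 for each comparison, which list transcripts with FPKM values and estimated counts, per the file headers. The FPKM values, made by the authors, are scaled to transcript length and library size. All deposited estimated counts were whole, so rounding changed none of them. Per the submitters' processing notes, mm10, Bowtie2, featureCounts, Trim Galore and FastQC were used. Which program gave these values is not stated in the sources used here. Columns headed KO were taken as the sgNAT10 libraries, and 0 columns were without a sample. Transcripts were summed per gene. Reads of overlapping genes and pseudogenes (Fbl-ps2 and Wdr46-ps among named ones, at most 1.40 and 0.0951 FPKM) follow the authors' assignment.

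Each comparison was fitted with edgeR 4.0.16 (R 4.3.3) on the estimated counts of 6 libraries, after TMM scaling and filterByExpr at its default settings, and adjusted p-values are Benjamini-Hochberg values over all genes tested. All 51 members passed the filter in each table. Differences of effects were interaction contrasts over 12 libraries. FPKM levels are not TMM-scaled, so a ratio of FPKM can differ from the edgeR log2 change. Replicate libraries differed by more than sampling noise (lowest chi-square per degree of freedom 10.7, at most 1.27% equal counts). Alternatives were RLE factors, library size alone, no filter, 1 CPM in 3 libraries, DESeq2 1.42.0, a replicate block, limma-trend 3.58.1 with a minimum of 1 FPKM in 3 libraries and a pseudocount of 1 or 0.1 before taking log2, dispersion over 18 libraries, protein coding transcripts alone, and each library left out. On simulated counts with 200 changed genes edgeR recovered 61% of 2-fold and 79% of 4-fold changes in MCA205 cells (17358 genes), 49% and 88% in TC1 cells (18306 genes) and 38% and 73% in tumours (18668 genes). For the differences of effects it recovered 50% and 71% between MCA205 and TC1 cells (19623 genes) and 22% and 72% between tumours and TC1 cells (20164 genes). Of the simulated calls, 7.89% in MCA205 cells, 8.05% in TC1 cells and 4.31% in tumours fell on unchanged genes. For the 2 differences of effects these were 2.42% and 5.05%. Changes under 2-fold were not simulated. The members, gene lists and rules were chosen with earlier results of these data known. Named members are the 5 largest rises and falls of each comparison, those called in all 3 or in opposite directions, up to 5 with a called difference of effects, and Fbl, Ncl, Npm1, Nop56 and Polr1a, 29 in all. Other members are given by counts, ranges or log2 changes. Motifs other than CACGTG were chosen after the data were seen. Promoters are RefSeq windows, and gene bounds are those of the GENCODE annotation of mm10.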

Additional observations from a re-analysis of the deposited data

Results flagged for a closer look

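Effects of the guide differed between the cell lines by the interaction contrast of edgeR, with 24 members higher and 2 lower in MCA205 than in TC1 cells. The members with the smallest p were Nop56 (log2 difference 1.06), Nop14 (0.79), Utp4 (0.81), Heatr1 (1.09) and Utp14a (0.82), and each of these 5 calls held in all 12 fits that left out a library. Between tumours and TC1 cells the contrast was higher for 3 members and lower for 1: Heatr1 (0.75), Imp3 (0.64), Dimt1 (0.63) and Emg1 (-0.77). Both contrasts use the same TC1 libraries, so their results are not independent of each other.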

How the results depend on the processing

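Counts of called members moved mostly with the library left out, the replicate block and the dispersion. Shares of all genes called in the same fits are not given beside them. MCA205 cells had 4 to 10 rises and 14 to 20 falls over fits that left out 1 library or the pair of libraries given below. Over fits that left out 1 library, TC1 cells had 15 to 46 falls and tumours 2 to 32 falls. The difference between MCA205 and TC1 cells was higher for 18 to 38 and lower for 1 to 2 members, and that between tumours and TC1 cells higher for 1 to 8 and lower for 0 to 1. The replicate numbers do not pair the libraries, with correlations of same-numbered libraries from -0.564 to 0.267, and not in every pair above 0.1. With the replicate block there were 4 rises in MCA205 cells, 4 falls in tumours, 1 lower difference between MCA205 and TC1 cells, and 1 higher and 0 lower differences between tumours and TC1 cells. With dispersion over 18 libraries MCA205 cells had 1 rise and 5 falls and tumours 34 falls. With library size alone tumours had 12 falls and 7 higher differences from TC1 cells, and without a filter 1 difference was lower in MCA205 cells. The cause was not tested. Leaving out MCA205 wild type 1 and sgNAT10 2 together, which have the lowest intestine gene levels, gave 8 rises and 14 falls. Of the 76 called effects and differences of named members, no alternative turned the direction. Leaving out libraries kept 490 such values past the threshold and lost 107, and the other alternatives kept 581 and lost 79. Estimates that changed sign were all uncalled. In MCA205 cells protein coding transcripts alone gave 0.15 for Nop56, 0.03 for Nhp2, 0.28 for Tbl3 and 0.00 for Nop14, whose change was also 0.01 with library size alone, 0.04 without a filter, 0.01 without the pair of libraries and 0.01 with dispersion over 18 libraries, and -0.06 to 0.03 with 1 library left out. In TC1 cells Utp14a ran from -0.11 to 0.10 with 1 library left out. In tumours Polr1a was 0.08 with library size alone, 0.00 with 1 CPM, 0.03 with protein coding transcripts, 0.05 and 0.06 with limma-trend, 0.02 with dispersion over 18 libraries, and -0.08 to 0.01 with 1 library left out. Dimt1 there was 0.08 with library size alone, 0.00 with both limma-trend settings, 0.01 with dispersion over 18 libraries, and -0.12 to 0.06 with 1 library left out. Each group held 3 libraries and each member at least 1234 counts in every library, and which of these limits precision more was not compared.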
